A study of Mus musculus with 4 samples.

Results

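Oxidative phosphorylation in mitochondria is carried out by proteins from 2 genomes, and the subunits described here are those encoded in the nucleus. Their transcripts were followed in single epithelial cells of the mouse prostate, sorted by lobe and by *Runx1* reporter, before and after castration, and in explants of the embryonic urogenital sinus. The genes were chosen by symbol, as every row beginning with Nduf, Uqcr, Cox4 to Cox8 or Atp5 together with Sdha, Sdhb, Sdhc and Sdhd. This gave 93 of the 31053 rows of the count tables, for 92 symbols, since *Atp5o* has a second row with 1 UMI in the explant cells and none in the adult sums. Of these rows, 38 name subunits of complex I, 8 its assembly factors, 4 complex II, 8 complex III, 18 complex IV and 17 ATP synthase. The symbols place *Ndufa4* and *Ndufa4l2* with complex I, although NDUFA4 is now regarded as a subunit of complex IV. The rows lie on 19 chromosomes, 3 of them (*Ndufa1*, *Ndufb11* and *Cox7b*) on X, and 13 overlap another gene on the same strand, where a read can be ambiguous.

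Adult mice were P2-*Runx1*:RFP reporters of the ICR (CD-1) strain, over 8 weeks old, in which RFP is driven by the proximal P2 promoter of *Runx1*, and castrated mice of the same genotype were taken over 4 weeks after surgery. EPCAM+ cells of pooled mice were sorted as RFP+ or RFP- from 3 lobes, the anterior lobe (AP), the dorsolateral lobe (DLP) and the ventral lobe (VP), tagged with MULTI-seq barcodes, lipid-anchored DNA tags that record the sort, and run as 10x 3′ libraries. Runs 1, 2 and 3 used separate pools of mice and are the replicates here. Castrated lobes were mixed in run 1, kept apart in run 2 and absent from run 3, and the intact DLP RFP+ barcode was usable in run 3 alone. The explants were urogenital sinuses of E15.5 embryos of the same strain, cultured with 10 µM dihydrotestosterone and taken at days 0, 1, 3 and 6 as 1 pool of EPCAM+ cells a day in 1 library.

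In the respiratory chain, complex I takes electrons from NADH and complex II, succinate dehydrogenase, takes them from succinate in the tricarboxylic acid cycle. Both pass them through ubiquinone to complex III, cytochrome c carries them on to complex IV, and oxygen is reduced there. The proton gradient built on the way drives ATP synthase. A few core subunits of complexes I, III and IV and of ATP synthase come from mitochondrial DNA, whereas complex II is wholly nuclear. Several nuclear subunits exist as isoforms that differ between tissues, such as the COX4I1 and COX4I2 forms of complex IV. Prostate secretory epithelium is known for exporting citrate rather than oxidising all of it.

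Nuclear respiratory factor 1 (NRF1) is a known activator of respiratory chain genes and binds a GC-rich palindrome, so the promoters were searched for its letters, GCGCA, any base, then GCGC, on both strands, which reads GCGC, any base, then TGCGC on the other strand. The window ran from 250 bases before to 50 bases after each RefSeq gene start on GRCm38.p6. Of the 79 promoters of the 74 member symbols found in the table, 20 (25.3%) held the motif, against 4.6% of all 32851 promoters. By complex, it was found in 8 of 35 complex I promoters, 2 of 3 complex II, 1 of 5 complex III, 1 of 13 complex IV and 6 of 16 ATP synthase promoters. GC content was not matched, and a match describes the letters, not binding. A promoter was not found in the table for 18 symbols, among them *Cox4i1*, *Cox4i2*, *Uqcrq* and *Ndufa4l2*. The stretches of 4 genes that recur in the results are shown 5′ to 3′ on the strand of the gene, with the motif in capitals. They lie upstream of the annotated genes at chr17:56717677-56717736 (+) for *Ndufa11*, chr5:115349086-115349145 (-) for *Cox6a1*, chr9:50603894-50603953 (-) for *Sdhd* and chr13:74350304-74350363 (-) for *Sdha*.
Ndufa11: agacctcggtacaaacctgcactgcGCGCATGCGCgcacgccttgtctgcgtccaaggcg
Cox6a1: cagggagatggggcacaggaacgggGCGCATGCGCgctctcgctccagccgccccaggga
Sdhd: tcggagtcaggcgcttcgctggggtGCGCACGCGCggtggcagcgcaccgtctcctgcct
Sdha: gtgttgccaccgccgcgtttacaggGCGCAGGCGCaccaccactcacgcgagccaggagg

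The adult libraries held 35051876, 86381807 and 40087244 UMIs in runs 1, 2 and 3 and the explant library 121090404, in 2612, 6034, 3028 and 7474 cells. After filters on quality and barcodes, 824, 2194, 1673 and 5198 cells belonged to 1 sorted population. Any pair of libraries shared at most 6 cell barcodes. The 40 adult sums used held 10 to 327 cells each. The basal marker *Krt5* was at 655 CPM or more in all 18 basal sums and at most 56.8 CPM in the 22 luminal sums, and the leukocyte marker *Ptprc* reached at most 7.78 CPM in any of them. Both were among the markers used to name the clusters, so these values are no separate check of the naming. The summed level of the hematopoietic markers lay between 0 and 462.4 CPM, with its highest value in intact AP RFP+ basal-like cells of run 2. *Runx1* was higher in RFP+ than in RFP- cells in 13 of 13 intact pairs. The member genes were left out of the clustering that named the cells. Levels are given as CPM, the UMIs of a gene in every 1000000 UMIs of the summed cells of 1 run, population and compartment, for sums of at least 10 cells. A 3′ UMI is counted once per transcript whatever its length, and levels of different genes are compared on that scale. Member levels did differ between runs 1 and 3 along with transcript length, as described below, which limits such comparisons.

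Most member genes were robustly detected in intact prostate epithelium. Over the 31 sums of intact cells, 72 members had a median of at least 50 CPM, 7 lay between 20 and 50 CPM and 14 below 20 CPM. *Cox4i1*, the ubiquitous form of a regulatory complex IV subunit, led with a median of 1473 CPM and a range from 892 to 1877 CPM. It was followed by *Cox8a* of complex IV (885 CPM) and *Uqcrh*, the hinge subunit of complex III (734 CPM). The catalytic core of ATP synthase was less abundant, with *Atp5b* at 480.4 CPM and *Atp5a1* at 396 CPM. *Cox5a*, a nuclear subunit of complex IV, was at 354 CPM. Core subunits of complexes I to III lay lower still, with *Uqcrc1* at 116 CPM and the NADH-binding *Ndufv1* at 85.4 CPM. The flavoprotein *Sdha* was at 50.6 CPM and *Ndufs1*, an iron-sulphur subunit of complex I, at 26.5 CPM.

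The isoforms known from other tissues were scarce in the adult epithelium. *Cox7a1*, the heart and muscle form, had a median of 0.711 CPM, and *Cox6b2*, the testis form, one of 5.98 CPM. *Cox4i2*, a form known from lung and induced by low oxygen, did not exceed 4.89 CPM, and its median share of the UMIs of *Cox4i1* and *Cox4i2* was 0%, with a highest value of 0.285%. *Cox8b* had 5 UMIs, *Cox8c* 2 and *Ndufa4l2* 18 in the 40 adult sums together. *Cox6a2* and *Cox7b2* had 0 of 74042622 UMIs there, which allows a level of up to 0.0405 CPM.

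Added up, the members took a share of the UMIs that varied with lobe and compartment. In luminal-like cells of intact AP it was 2.47%, 2.20% and 2.74% for RFP+ and 2.52%, 2.64% and 2.88% for RFP- cells in runs 1, 2 and 3. In intact VP it was 1.21%, 1.42% and 1.45% for RFP+ and 1.34%, 1.57% and 1.77% for RFP- cells, below every AP value. DLP RFP- luminal-like cells lay at 2.41%, 2.04% and 2.60%, DLP RFP+ cells of run 3 at 1.75%, and the intact basal-like sums between 1.89% and 2.53%. The 50 most abundant genes of a sum, many of them secretory, took 65.6% to 68.9% of the UMIs in intact VP luminal-like cells and 26.1% to 40.7% in AP. Among the UMIs outside those 50 genes, the members' share was 3.85% to 5.39% in VP and 3.34% to 4.51% in AP, so that the low share in VP was seen against all UMIs and not against the rest of the transcriptome. Counted per cell, the members had 666, 676 and 687 UMIs in VP RFP+ against 422, 368 and 347 in AP RFP+ luminal-like cells of runs 1, 2 and 3, and 742, 738 and 482 in VP RFP- against 516, 616 and 444 in AP RFP- cells. Within each run the VP cells thus held more member UMIs than the AP cells of the same sort, beside larger totals.

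**Figure D1:**
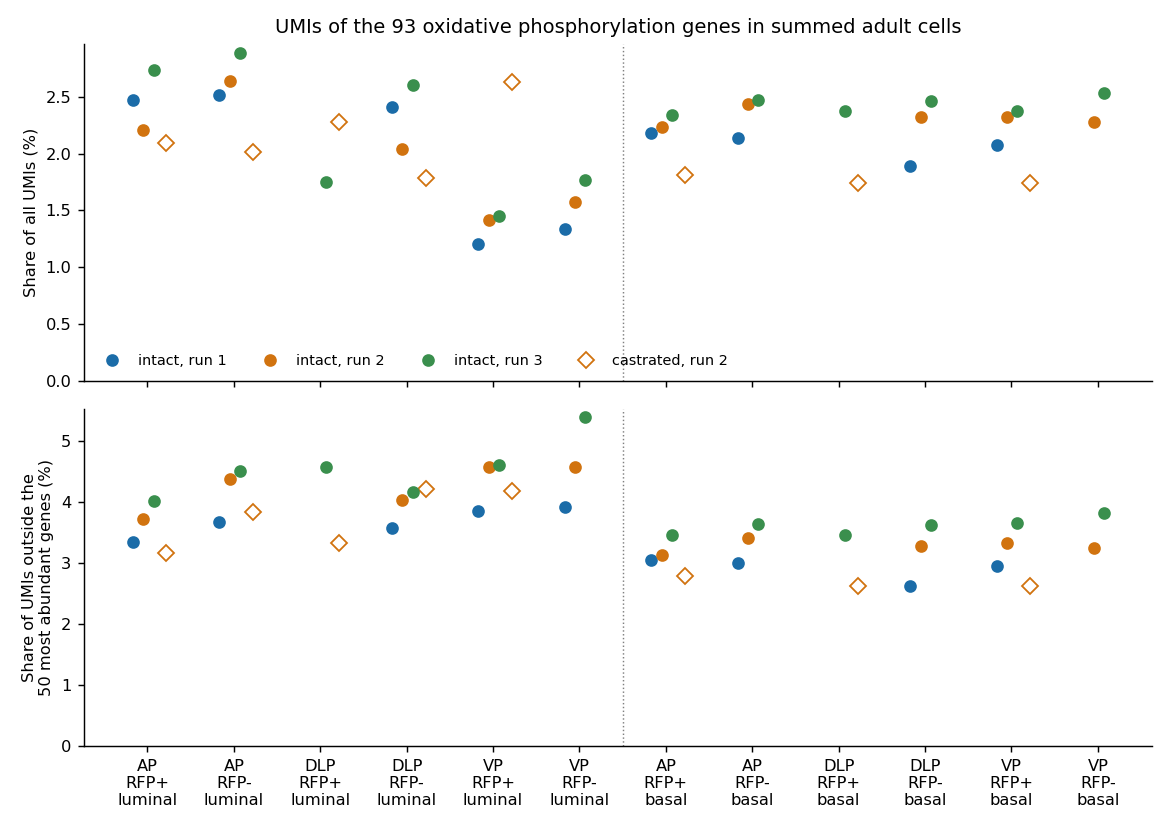
Share taken by the 93 member genes, in percent, of all UMIs (upper panel) and of UMIs outside the 50 most abundant genes (lower panel), by lobe, RFP and compartment; each circle is 1 run of intact mice and each diamond the castrated pool of run 2. Against all UMIs, intact VP luminal-like cells sit between 1.21% and 1.77%, below the intact AP luminal-like cells at 2.20% to 2.88%, while in the lower panel they lie between 3.85% and 5.39%.

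Between luminal-like and basal-like cells of the same run and sort, the direction of the members as a whole depended on the lobe and the run. The direction of all genes shifted alike between pairs. The members' median log2 difference, luminal minus basal, still lay above that of all genes in every pair, intact or castrated. In VP RFP+ cells of run 2 it was -0.63 against -1.225 in intact and 0.73 against -0.07 in castrated mice. In castrated AP RFP+ cells of run 2 it was 0.29 against 0.14. These compartments are clusters of the same cells, so the values are a description with no test. In intact VP 64 to 66 of 71 members were lower in luminal-like cells in each of 5 pairs, as were most genes, of which 12% to 16.5% were luminal-higher. The DLP RFP+ pair of run 3 was alike, with 66 of 71 members lower and 15.9% of all genes higher. In run 1, by contrast, 61 of 76 members of AP RFP+ and 63 of 75 of DLP RFP- were luminal-higher, against 52.8% and 43.9% of all genes. In run 2 the same sorts had 28 and 19 of 73 luminal-higher (38.4% and 26%), against 32.1% and 26% of all genes. Some single members kept 1 direction in all lobes. The share of all genes that did so was not counted. *Ndufv3*, an accessory subunit of the NADH-binding module of complex I, was higher in luminal-like cells in 15 of 15 intact pairs, by a median of 1.07 on the log2 scale. In AP RFP- cells it was 197, 292 and 426 CPM in luminal-like and 93.6, 85.5 and 114 CPM in basal-like cells of runs 1, 2 and 3. *Ndufa1*, a small X-linked complex I subunit needed for assembly, was luminal-higher in 15 of 15 pairs (median 0.87), and so was *Ndufa4* (median 0.47).

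The opposite held for *Ndufa11*, a membrane subunit of complex I, which was basal-higher in 15 of 15 pairs (median log2 difference, luminal minus basal, -1.35). In AP RFP- cells it was at 199, 206 and 220.3 CPM in luminal-like and 566, 603 and 563 CPM in basal-like cells. The groups did not overlap in any lobe. *Ndufaf6*, a complex I assembly factor (-2.09), *Atp5a1* (-0.75), *Ndufa5* of complex I (-0.70) and *Uqcrc1* (-0.57) were also basal-higher in 15 of 15 pairs, and *Cox6b2* (-2.86) in 14 of 15. Complex I thus held members at both ends. In the VP pairs and the DLP RFP+ pair most genes were basal-higher, so that direction there does not set these genes apart.

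A shift between isoforms was seen for subunit c of ATP synthase, which forms the rotor ring and whose mature protein is encoded identically by *Atp5g1*, *Atp5g2* and *Atp5g3*. Of the UMIs of these 3 genes, *Atp5g1* took 29.03% to 44.5% in intact luminal-like and 19.8% to 30.8% in intact basal-like cells, and its share was higher in luminal-like cells in 15 of 15 pairs. *Atp5g2* took 35.5% to 48.9% in luminal-like and 47.1% to 59.4% in basal-like cells and was lower in luminal-like cells in all 15 pairs. The share of *Atp5g3* had no such direction, being higher in luminal-like cells in 6 of 15 pairs. In castrated mice of run 2 the *Atp5g1* share of luminal-like cells was smaller than in intact mice, at 28.98% against 32.98% for AP RFP+, 35.8% against 40.2% for AP RFP-, 34.2% against 39.2% for DLP RFP- and 27.8% against 44.5% for VP RFP+. Intact cells of run 3 were themselves at 29.03% for AP RFP+ and 34.25% for DLP RFP-, level with the castrated values, and at 37.9% for AP RFP- and 39.7% for VP RFP+. In castrated VP RFP+ cells the share was slightly below that of basal-like cells (28.3%).

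Whether *Runx1* reporter cells differ in these genes was tested on the sums of runs 1, 2 and 3 with edgeR's quasi-likelihood test over all genes. In luminal-like AP cells 2 of 84 tested members passed an adjusted p of 0.05. *Ndufc2*, a small complex I subunit at chr7:97400003-97407802 (+) that overlaps *Gm16053* on the same strand, was at 222, 245 and 260.1 TMM-scaled CPM in RFP+ and 129, 165 and 114 in RFP- cells. All RFP+ sums lay above all RFP- sums, and the gene rose by 0.83 ± 0.20 (log2, SE, n = 3 runs; adjusted p = 0.014). *Uqcrq*, a complex III subunit at chr11:53427922-53430831 (-), was at 266, 348 and 411 CPM in RFP+ and 528, 734 and 809.9 CPM in RFP- cells. It fell by 1.01 ± 0.25 (adjusted p = 0.0156), again with no overlap. By direction, 1 member was higher and 1 lower, where 13.3% of all 8889 genes were called higher and 11.5% lower. Without run 2 neither gene passed (*Ndufc2* 0.96, adjusted p = 0.0645; *Uqcrq* -1.02, adjusted p = 0.148, edgeR), and without run 3 *Ndufc2* did not (0.66, adjusted p = 0.098).

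With a term for run, which pairs the RFP+ and RFP- cells of the same mice, 21 members passed, 1 higher and 20 lower, against 18% of all genes higher and 17.8% lower. The lower ones were led by *Uqcrq* (adjusted p = 0.000131), *Ndufa1* (-0.997), *Ndufv3* (-0.96) and *Uqcr11* (-0.76), and included *Atp5g1* (-0.58). *Ndufa1* was at 107, 271 and 275 CPM in RFP+ and 249, 537 and 474 CPM in RFP- cells. The groups overlapped across runs, but within each run the RFP+ value was below the RFP- value. Small differences ran the same way: 49 of the 84 members were lower in RFP+ cells in all 3 runs, where 31.7% of all genes were, and 7 were higher in all 3. The members' median difference was -0.18, beside -0.01 for all genes. Without TMM scaling these medians were -0.03 and 0.15, a shift of both by a similar amount. The AP RFP+ sums were 81.2% to 88.3% Lum-D-like and the RFP- sums 81.2% to 93.5% Lum-B-like cells, so that reporter and luminal cluster cannot be told apart here.

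In luminal-like VP cells none of 83 members passed, where 0.289% of all genes did. At an unadjusted p of 0.05 the count was 0 of 83 members in edgeR, beside 494 of 7958 genes, and with the term for run 9 members, beside 881 genes. DESeq2 gave 0 of 88 as well, where it called 0.429% of all genes. The members' median was -0.22, beside -0.0029 for all genes, and 35 of 83 were lower in RFP+ cells in all 3 runs, where 17% of all genes were. Leaving out runs 1, 2 and 3 in turn gave member medians of -0.23, -0.32 and -0.06. The VP RFP+ sums were 86.3% to 94.5% Lum-A-like. The RFP- sums were 50% to 68.2% Lum-A-like and 30% to 33.3% Lum-C-like, and that of run 1 held 10 cells. Reporter and luminal cluster thus cannot be told apart in VP, nor in the interaction below. *Ndufc2* was at 106, 120 and 120.5 CPM in RFP+ and 121, 117 and 166 CPM in RFP- cells of VP, and these values overlapped. The difference of the RFP effect between AP and VP was tested as an interaction. *Ndufc2* alone of 84 members passed (1.03 ± 0.27, adjusted p = 0.0433, edgeR), 1 member being higher and 0 lower, where 2.72% of all genes were higher and 2.06% lower. This call was lost when any of the runs was left out, the value then lying between 0.73 and 1.35. With the term for run 4 members passed, *Ndufc2* and *Ndufa11* higher and *Ndufa1* and *Uqcrq* lower, where 12.6% of all genes passed.

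In basal-like AP cells no difference between RFP+ and RFP- sums was detectable at this depth in any of 84 members, in edgeR or DESeq2. Of all genes 0% passed in either tool, and at an unadjusted p of 0.05 in edgeR 0 members and 91 of 8540 genes did. The members' median was -0.07.

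**Figure D2:**
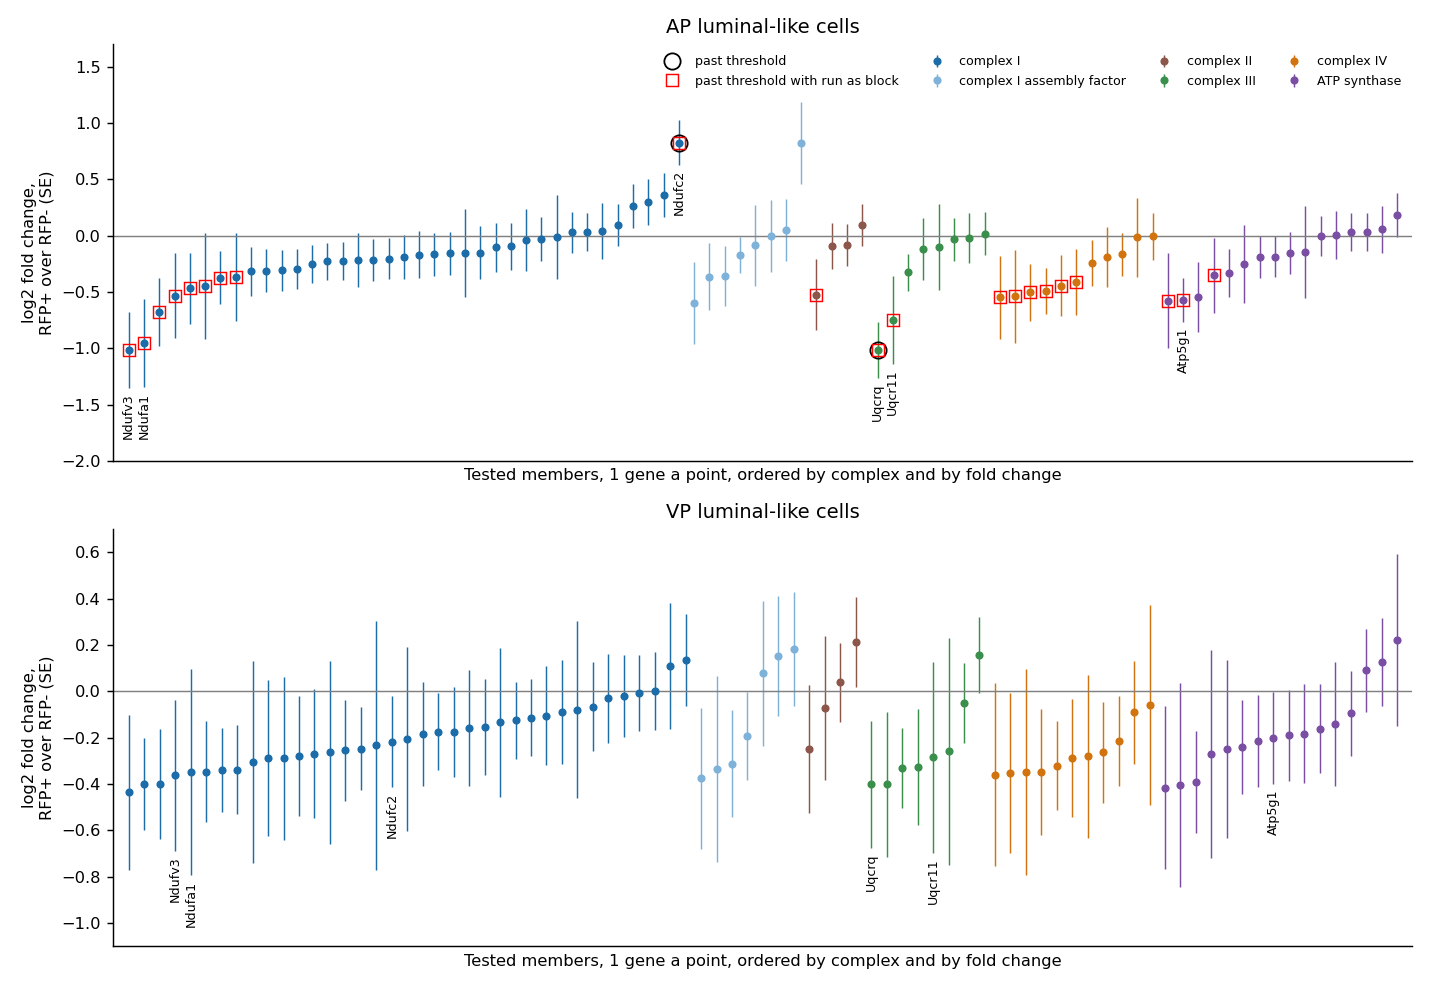
Log2 fold change, RFP+ over RFP-, of each tested member in luminal-like AP (upper panel) and VP cells (lower panel), ordered by complex, with standard errors and 6 genes described for AP labelled; black circles passed an adjusted p of 0.05 (edgeR, 3 runs a group) and red squares passed with a term for run. Most members lie a little below 0 in both panels; *Ndufc2* (0.83) and *Uqcrq* (-1.01) carry black circles in AP, and no gene does in VP.

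The lobes were compared within RFP- luminal-like cells, whose AP sums also enter the comparison above. Between AP and VP, 6 of 82 members were lower in AP and 0 higher, where 7.86% of all genes were lower and 7.5% higher. *Ndufc2* was at 84.7, 110.3 and 78.6 TMM-scaled CPM in AP and 171, 164 and 233 CPM in VP and was lower in AP (-1.04 ± 0.23, adjusted p = 0.0127, edgeR). *Ndufa11*, at chr17:56717767-56722141 (+), was at 125, 156 and 164 CPM in AP and 237, 266 and 359 CPM in VP (-0.96 ± 0.24, adjusted p = 0.0211, edgeR). For both genes every VP sum was above every AP sum. *Cox5a*, a nuclear subunit of complex IV, was at 276, 258 and 251 CPM in AP and 487, 389.6 and 487 CPM in VP (-0.79 ± 0.22, adjusted p = 0.0335, edgeR). *Uqcrfs1*, the Rieske iron-sulphur protein of complex III, was at 135, 125 and 137 CPM in AP and 213, 211 and 239 CPM in VP (-0.74 ± 0.19, adjusted p = 0.0273, edgeR). The other genes called were the complex I assembly factors *Ndufaf2* (-0.91) and *Ndufaf3* (-0.70).

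These directions hold relative to the bulk of the genes, not to all UMIs. On total counts without TMM, 53 members were higher in AP and 0 lower, where 66.1% of all genes were higher and 2.5% lower. The median of all genes moved from 0.02 to 1.02 and that of the members from -0.26 to 0.76, and *Ndufa11*, *Cox5a* and *Uqcrfs1* were then at 0.06, 0.22 and 0.28, above 0. Leaving out runs 1, 2 and 3 in turn gave 2, 0 and 1 members called, the last of them higher in AP. The VP RFP- sum of run 1 holds 10 cells, and 5 of 10, 45 of 66 and 28 of 45 cells of the VP RFP- sums were Lum-A-like, so that lobe and luminal cluster cannot be told apart.

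Between AP and DLP 0 of 82 members passed in edgeR, and 0 in DESeq2, where 0.683% and 0.733% of all genes passed. At an unadjusted p of 0.05 in edgeR 1 member passed, beside 794 of 8058 genes. With the term for run *Sdhb*, the iron-sulphur subunit of complex II (0.47), and *Cox8a* (0.33) were higher in AP, where 6.8% of all genes passed. In basal-like RFP+ cells, no member of 83 passed between AP and VP in edgeR, nor any in DESeq2, where 0.402% and 0.47% of all genes did. At an unadjusted p of 0.05 in edgeR 0 members passed, beside 577 of 7720 genes. With the term for run *Ndufa11* was lower in AP (-0.38, adjusted p = 0.0398, edgeR), where 6.48% of all genes passed.

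Other genes of the pathway were counted from lists chosen as the members were, with earlier results known. None of the 13 mitochondrially encoded subunits passed in any of the 7 tests. Of the 17 tested genes of the tricarboxylic acid cycle, 3 were lower and 0 higher in AP RFP+ than in RFP- luminal-like cells. Among them were *Fh1*, fumarase (-1.17), and *Pdhb*, of pyruvate dehydrogenase (-0.61). Between AP and VP, 1 of the 17 was higher in AP, *Fh1* (1.19), and 2 were lower. These were *Idh3a*, of isocitrate dehydrogenase (-0.99), and *Suclg2*, of succinyl-CoA synthetase (-0.90). Of the carriers, assembly and transport genes, 2 of 38 were lower (*Cox19* and *Uqcc3*) and 1 higher (*Ttc19*, a complex III factor, 0.77) in AP RFP+ cells. Between AP and VP, of 34 tested, *Cox19* was higher in AP (0.90) and *Slc25a5*, an ADP/ATP carrier, lower (-0.86). Of all genes, 11.5% were lower and 13.3% higher in the RFP test of AP. In the test of AP against VP 7.86% were lower and 7.5% higher. None of the regulators of mitochondrial genes and none of the hypoxia genes passed in any of the 7 tests. No gene of these lists passed in the other 5 tests.

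The members differed in a graded way between the runs themselves, a comparison made after the values were seen and given without a test. Over the 9 intact populations present in all 3 runs, 21 of the 72 members at 50 CPM or more were at least 1.5-fold higher in run 3 than in run 1, and 1 was that much lower. Of all 2298 genes at that level 8.79% were that much higher and 16.7% that much lower. *Ndufa3*, a small accessory subunit of complex I, differed most, by a median of 1.48 on the log2 scale. *Atp5e*, the epsilon subunit of ATP synthase (1.23), *Cox7c* of complex IV (1.21), *Ndufc1* of complex I (1.15) and *Uqcr10* of complex III (1.15) followed, and these 5 were higher in run 3 in 9 of 9 populations. At the other end stood *Ndufv1* (-0.63), *Atp5a1* (-0.58) and *Atp5d* (-0.58), lower in 9 of 9. The annotated transcripts of the first 5 have median lengths of 421 to 782 bases and those of the other 3 of 931 to 2572 bases.

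Across the members the difference between runs ran against the median length of their annotated transcripts, with a Spearman correlation of -0.70 over 72 genes, while over 2283 genes of all kinds it was 0.058. Genes are not independent replicates and these points share the same libraries. Run 2 already stood near run 3: in basal-like cells of intact mice *Atp5e* was at 343, 686 and 728 CPM, *Cox7c* at 255, 464 and 519 CPM and *Uqcr10* at 269.6, 534 and 596 CPM in runs 1, 2 and 3. The study sequenced runs 1 and 2 on the same type of instrument and run 3 on another, and each run came from its own mice. Between runs 1 and 3, instrument and mice cannot be told apart. The cause was not tested. The fold changes of RFP, from the fit over the 3 runs without a term for run, were set beside length too. Their length correlation was 0.24 over 84 members in AP and 0.51 over 83 in VP, beside 0.0878 and 0.224 over all genes. The part of length in the small shared differences was not tested.

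**Figure D3:**
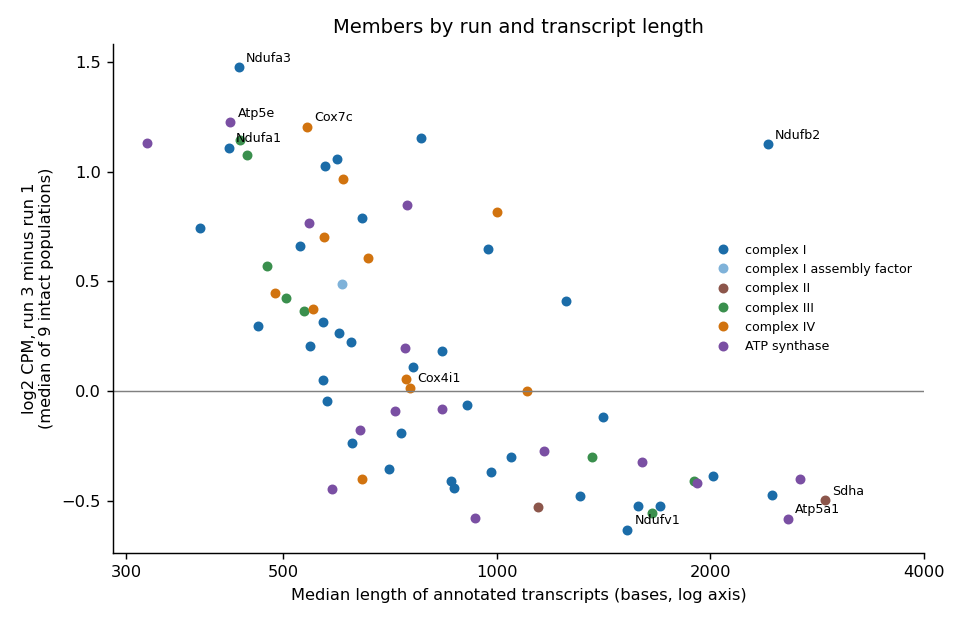
Median log2 difference in CPM between run 3 and run 1 over 9 intact populations (vertical axis) against median annotated transcript length in bases (horizontal log axis) for the 72 members at 50 CPM or more, coloured by complex. Many short members such as *Ndufa3* (1.48) lie above 0 and many longer ones such as *Ndufv1* (-0.63) below it. Exceptions include *Ndufb2* (2413 bases, 1.12) and *Atp5g2* (586 bases, -0.44).

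Castrated and intact cells could be compared within run 2, with 1 pool of mice each, so no test was possible and the intervals cover counting error alone. A member was counted as higher or lower where the ratio of castrated to intact CPM was at least 1.5-fold and the mean at least 50 CPM. The VP stood apart. In luminal-like VP RFP+ cells (126 castrated and 183 intact) 62 of 72 members were higher and 0 lower, where 77.9% of all genes were higher and 3.34% lower. The members' share of UMIs there was 2.63% in castrated and 1.42% in intact cells, while their UMIs per cell were 514 and 676. All 72 members were above all 3 intact runs, as were 90.2% of all genes.

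*Atp5g2*, the subunit c isoform at chr15:102662864-102672352 (-), was at 834 CPM in castrated VP RFP+ luminal-like cells and at 317, 239 and 233 CPM in the intact cells of runs 1, 2 and 3. Its ratio within run 2 was 3.49 (95% interval 3.29 to 3.72), against 1.46 for *Atp5g1* and 2.23 for *Atp5g3*. *Uqcrh* was at 846 against 318 CPM (2.66), *Uqcr10* at 676 against 259.9 CPM (2.60), *Atp5d*, the delta subunit of ATP synthase, at 534 against 217 CPM (2.47) and *Ndufa6* of complex I at 446 against 182 CPM (2.45). By complex, 29 of 35 members of complex I, 1 of 2 of complex II (*Sdha*), 7 of 8 of complex III, 10 of 11 of complex IV and 14 of 15 of ATP synthase were higher. *Ndufa1* differed least, at 267 against 254 CPM (1.05). All 12 mitochondrially encoded subunits counted were higher too.

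The bulk of all genes moved with them: the median log2 ratio was 0.83 for the members and 0.98 for all genes. With the scaling of the pair by TMM, 1 member (*Atp5g2*, 1.80) was higher and 4 lower, and without the 50 most abundant genes in the totals 1 was higher and 6 lower. The castrated VP RFP+ sum was 84.1% Lum-F-like, while 82.4% of the castrated AP RFP+ and 73.5% of the castrated AP RFP- luminal-like cells were Lum-E-like, clusters that held at most 6.06% of any intact sum, so that castration and luminal cluster cannot be told apart.

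In AP the members were level or lower. In luminal-like AP RFP+ cells (193 castrated, 101 intact) 2 of 73 were lower and 0 higher, where 9.56% of all genes were lower and 20.1% higher. *Ndufc2* was at 136 CPM in castrated and 226 CPM in intact cells (ratio 0.604, 95% interval 0.526 to 0.693), and *Ndufa1* at 164 against 249 CPM (0.658), though intact run 1 was at 133.5 CPM. Both belong to complex I. In AP RFP- cells (49 and 149) 17 of 73 members were lower and 0 higher, where 22.9% and 9.69% of all genes were. *Sdhd*, a membrane anchor of complex II, was at 33.3 CPM in castrated cells and at 92.99, 69.1 and 33.9 CPM in the intact runs (ratio within run 2 0.482), so that the castrated pool stood close to intact run 3. *Ndufa1* was at 231 against 474 CPM (0.487), *Cox6a1*, the ubiquitous form of a complex IV subunit, at 149 against 287 CPM (0.520), *Sdhb* at 78.1 against 134 CPM (0.581) and *Ndufv3* at 174 against 292 CPM (0.596). Of the 73 members, 51 lay under all 3 intact runs, where 49.5% of all genes did. With TMM of the pair 9 were lower. None of the 15 members of ATP synthase was called, nor any of the 12 mitochondrially encoded subunits.

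In DLP RFP- luminal-like cells (21 and 67) 3 of 72 members were lower and 0 higher, where 21.5% and 3.68% of all genes were. *Ndufb7*, a complex I subunit, was at 109.5 against 199 CPM (0.550), *Cox7c* at 428 against 652 CPM (0.656) and *Cox6a1* at 170.3 against 256 CPM (0.666). With TMM of the pair 4 members were higher and 1 lower, so the direction of this small count rests on the scaling.

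In basal-like AP RFP+ cells (153 castrated, 120 intact) 16 of 71 members were lower and 0 higher, where 22% and 4.48% of all genes were, so the share of lower members was near that of all genes. The median log2 ratio was -0.39 for the members and -0.23 for all genes. Of the 16, 11 were complex I subunits, which made up 35 of the 71 members counted. *Ndufb7* was at 93.7 CPM in castrated and at 161, 190.2 and 163 CPM in intact cells of runs 1, 2 and 3 (ratio 0.493, 95% interval 0.393 to 0.615), below all of them. *Ndufa1* was at 93.7 against 184 CPM (0.510), but intact run 1 was lower still at 74.6 CPM. *Uqcr10* was at 262 CPM against 268, 511 and 581 CPM in the intact runs (0.512), so that the castrated pool stood close to run 1. *Sdhb* (0.552) and *Ndufs4* of complex I (0.581) completed the 5 lowest. With TMM of the pair 4 of the 71 were lower. Under all 3 intact runs lay 47 of 71 members and 45.2% of all genes.

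In basal-like VP RFP+ cells (80 and 81) 22 of 71 members were lower and 0 higher, where 22.8% and 10.4% of all genes were. *Ndufs3*, a core subunit of complex I, was at 36.1 CPM in castrated and at 135, 97.7 and 118 CPM in intact cells (0.370, 95% interval 0.198 to 0.645). *Ndufa12* of complex I was at 69.8 against 158 CPM (0.443), *Ndufb7* at 69.8 against 153 CPM (0.456), *Atp5c1*, the gamma subunit of ATP synthase, at 132 against 259 CPM (0.511) and *Uqcr10* at 282 against 547 CPM (0.515). Of the called members 15 were among the 35 of complex I. The median log2 ratio was -0.46 for the members and -0.12 for all genes, and 44 of 71 members lay under all 3 intact runs, as did 35% of all genes. None of the mitochondrially encoded subunits counted was called in basal-like cells of either lobe.

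Castrated basal-like cells were also shallower, with a median of 5384 UMIs a cell in AP and 3633 in VP against 8905 and 8059 in the intact cells of run 2. Ribosomal protein genes took 36.9% and 32.8% of their UMIs, against 25.6% and 26.6% in the intact RFP+ basal-like cells of run 2. The summed hematopoietic markers were at 87.3 CPM in castrated AP RFP+ and 69.8 CPM in castrated VP RFP+ basal-like cells, against 462.4 and 188 CPM in the intact cells of run 2. In luminal-like cells they were at 84.9 against 223.5 CPM for AP RFP+, 38.5 against 8.06 CPM for AP RFP-, 6.08 against 115 CPM for DLP RFP- and 115 against 8.49 CPM for VP RFP+. The part of depth, ribosomal genes and hematopoietic RNA in these ratios was not tested. Across the 5 comparisons other than luminal-like VP, which share run 2, *Ndufa1* was called lower in 4 and *Ndufb7* in 3, and no member was called higher. Of all genes, 9.56% to 22.9% were called lower in each of these comparisons, and how many recurred as often was not counted. Castrated *Ndufa1* lay above intact run 1 in AP RFP+ luminal-like, AP RFP+ basal-like and VP RFP+ basal-like cells.

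**Figure D4:**
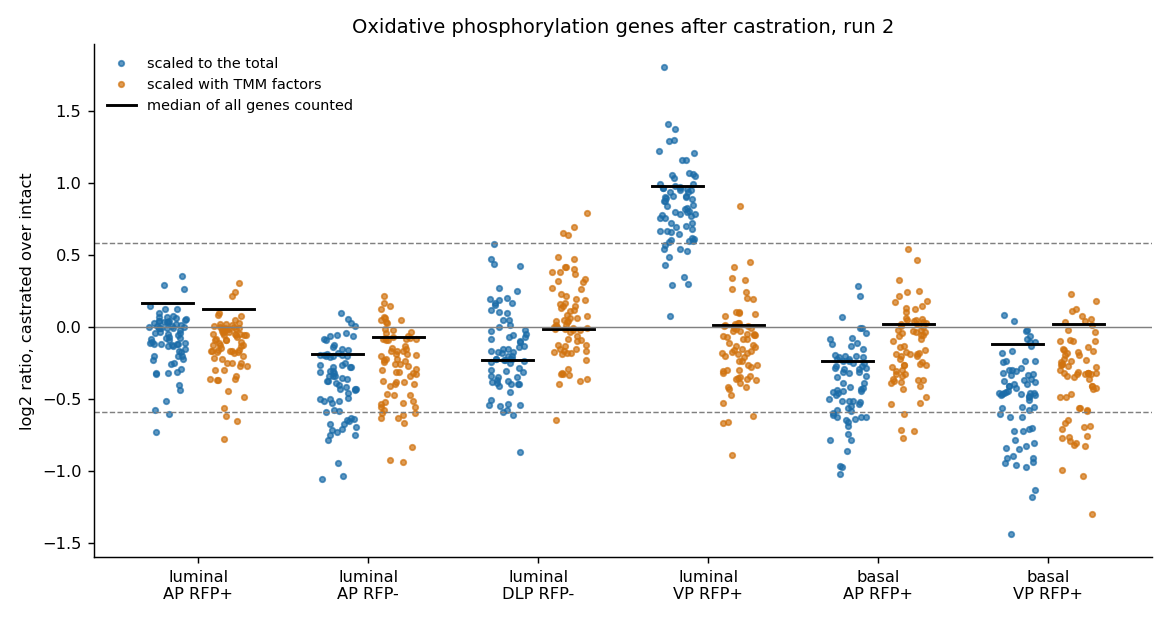
Log2 ratio of castrated to intact CPM in run 2 for each member counted, by comparison; each point is 1 gene, blue where scaled to total UMIs and orange with TMM factors, dashed lines mark 1.5-fold and black bars the median of all genes counted. Scaled to the total, 62 of 72 members lie above the upper line in luminal-like VP RFP+ cells, where with TMM 1 does, and in basal-like AP and VP 16 and 22 of 71 lie below the lower one.

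In the urogenital sinus explants the members as a whole were steady while 2 genes were not. The prostatic epithelium-like cells numbered 465, 436, 937 and 1962 at days 0, 1, 3 and 6, and the members took 2.12%, 2.31%, 2.43% and 2.29% of their UMIs. Each day is 1 pool, so no test was possible. From day 0 to day 1, 1 of 73 members was higher and 0 lower, where 3.52% of all genes were higher and 2.53% lower. From day 1 to day 3 no member was called, where 2.14% were higher and 4.21% lower, and from day 3 to day 6, 1 was lower and 0 higher, where 1.25% were lower and 1.86% higher. Between days 0 and 6, 70 of 73 members stayed within 1.5-fold, with a median ratio of 1.09, and *Ndufa11* was the third outside it (232 and 351 CPM, 1.51).

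*Ndufa4l2*, a paralog of *Ndufa4* known as a target of the hypoxia-inducible factor HIF-1, was at 58.9, 257, 343 and 500.3 CPM at days 0, 1, 3 and 6. The ratio was 4.36 from day 0 to day 1 and 8.49 (95% interval 7.87 to 9.18) from day 0 to day 6. *Ndufa4* itself was at 383, 435, 438 and 382 CPM, so that *Ndufa4l2* made up 13.3%, 37.1%, 43.95% and 56.7% of the UMIs of the pair. In intact adult epithelium the highest such share was 5.22% and the median 0%. The gene lies at chr10:127514967-127517154 (+) and overlaps *Shmt2* on the other strand.

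The level of *Ndufa4l2* depended on the cell type. In hypoxic or stressed-like cells, a cluster named from other genes with 163, 113 and 88 cells at days 1, 3 and 6, it was at 549, 986 and 1271 CPM. In mesenchyme-like cells it was at 4.14 CPM on day 0 and 243 CPM on day 6, and in mesonephric-like cells at 11.7 and 283 CPM. The day 0 value of mesenchyme-like cells lies near the floor of a small sum. Urothelium-like cells had 0, 217 and 129 CPM at days 1, 3 and 6. *Cox4i2* was at 15 CPM at day 0 and at 43.9, 25.01 and 26.6 CPM at days 1, 3 and 6 in prostatic epithelium-like cells. By day it made up 1.05%, 2.94%, 1.78% and 1.91% of the UMIs of *Cox4i1* and *Cox4i2*, and so was highest at day 1. Of the 6 hypoxia genes followed in the same cells, *Bnip3*, a mitophagy receptor, was at 48.4, 126, 98.7 and 130 CPM, *Ndrg1* at 20.6, 72.6, 57.97 and 74.1 CPM and *Vegfa* at 33.8, 52.4, 61.7 and 98.9 CPM. The glucose transporter *Slc2a1* was at 107, 168, 115 and 136 CPM, *Pdk1* at 23.7, 30.2, 28.5 and 30.97 CPM and *Ankrd37* at 11.6, 27.4, 22.6 and 17.2 CPM, with smaller differences between days 0 and 6 than the first 3. Their relation to *Ndufa4l2* was not tested.

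*Cox7b*, an X-linked subunit of complex IV at chrX:106015700-106022450 (+), was at 665, 673, 855 and 285 CPM. It was lower at day 6 than at day 3 (ratio 0.333) and than at day 0 (0.429, 95% interval 0.416 to 0.442). The low level was shared by all 5 cell types, which lay between 721 and 995 CPM at day 3 and between 237 and 323 CPM at day 6. The other 10 members of complex IV counted stayed within 1.5-fold over the same step.

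**Figure D5:**
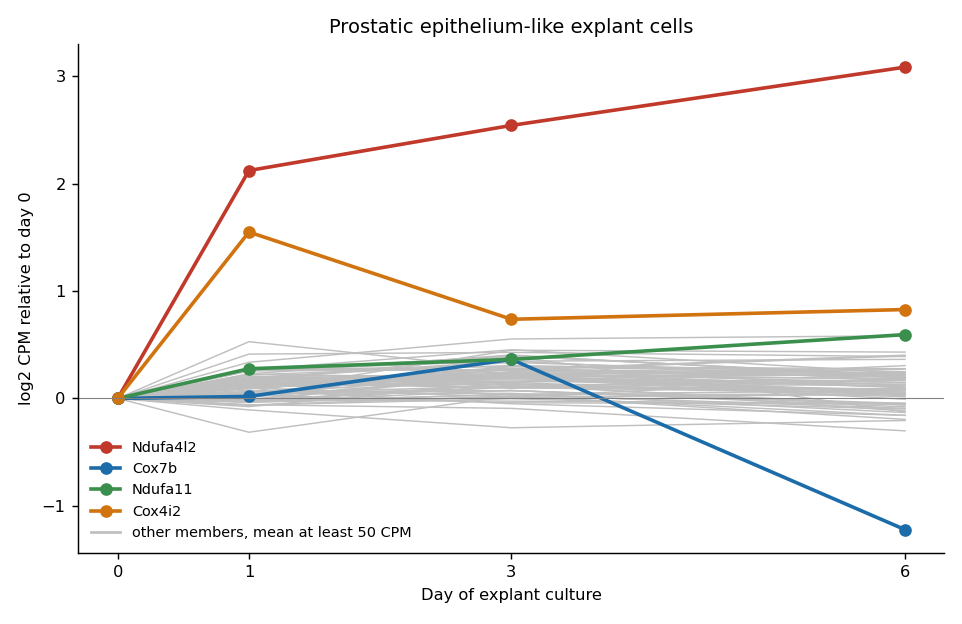
Log2 CPM relative to day 0 (vertical axis) by day of culture (horizontal axis) in prostatic epithelium-like explant cells for *Ndufa4l2*, *Cox7b*, *Ndufa11* and *Cox4i2* (coloured) and the other members with a mean of at least 50 CPM (grey); each point is 1 pool. *Ndufa4l2* ends at 8.49 times and *Cox7b* at 0.429 times its day 0 level, while the grey lines stay near 0.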

How the data were processed

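The deposited files hold raw UMI counts per gene and cell and counts of MULTI-seq barcodes, which the authors made with Cell Ranger 3.1.0 on mm10 (GRCm38), per the labels, with Seurat 3.1.5 named for later steps. Adult cells with more than 750 and fewer than 7500 detected genes and under 10% mitochondrial UMIs were kept (explant: more than 1000 genes, under 7.5%). The study states the upper limit of 7500 for UMIs. It was applied here to detected genes, with the limit on UMIs as an alternative. Cells were then assigned to 1 population by the barcode thresholds the study gives. Cells with more than 1 barcode were left out as doublets and no further caller was run. Cells were clustered in Seurat 5.3.0 without the member genes. Adult clusters were called non-epithelial, basal-like or luminal-like where several markers of that type had a UMI in a set share of their cells. Luminal-like clusters and the explant clusters were named by the highest mean z-score of marker genes. UMI counts were summed per run, population and compartment, with at least 10 cells.

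Sums were tested with edgeR 4.0.16 in R 4.3.3 (TMM, filterByExpr, quasi-likelihood test), with Benjamini-Hochberg adjustment over all genes tested and a threshold of 0.05. On simulated counts for the AP RFP comparison (8605 genes tested) edgeR recovered 7.46% of 1.5-fold, 58.2% of 2-fold and 100% of 4-fold changes, with 6.78% of calls false. Castrated pools and explant days have 1 sum each, so ratios carry exact 95% intervals for counting error. The named genes were a fixed set of isoforms and representative subunits, the 5 largest and 5 smallest changes past the threshold (at a mean of 50 CPM or more), and the 5 largest and smallest ratios called.

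RFP+ and RFP- cells and lobes of a run come from the same pool of mice, so runs pair the sums. Deviations from group means correlated within runs 1, 2 and 3 at 0.472, 0.372 and 0.349 for AP RFP, 0.345, 0.362 and 0.259 for VP RFP, 0.309, 0.0365 and 0.188 for AP against VP, 0.503, 0.351 and 0.532 for AP against DLP, 0.668, 0.434 and 0.506 for basal AP and 0.491, 0.388 and 0.328 for basal AP against VP. The fit with a term for run was an alternative. Others were DESeq2 1.42.0, other scalings and filters, leaving out each run, other cell filters and clusterings. The members and lists were chosen with earlier results of these data known, and the comparison of runs, its relation to length and the place of castrated values among the intact runs were chosen after the data were seen. Results for some genes are not reported here.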

Additional observations from a re-analysis of the deposited data

Results flagged for a closer look

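*Ndufc2* was set apart because its RFP effect in luminal-like cells differed between lobes in a test of the difference itself. The log2 difference of RFP+ and RFP- cells in AP less that in VP was 1.03 ± 0.27 (SE, 3 runs a group, adjusted p = 0.0433, edgeR interaction term). RFP+ cells were higher in 3 of 3 runs in AP and in 1 of 3 in VP. Over the alternatives for this gene its value lay between 0.73 and 1.35, and it did not pass the threshold without any 1 of the runs.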

How the results depend on the processing

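Of the counts of called members, those of luminal AP RFP (2 in the settings reported) were 4 with DESeq2, 5 with no low-count filter and 21 with the replicate block for run, and 0 to 4 with a run left out. For RFP- AP against VP (6) total counts without TMM gave 53 and leaving out a run 0 to 2, and *Ndufa11*, *Cox5a* and *Uqcrfs1* reversed to 0.057, 0.22 and 0.28. The block gave 2 for AP against DLP (0), 1 for basal AP against VP (0) and 4 for the interaction (1), which was 0 with no filter, without the 6% of cells with most UMIs and without any run. The block added *Ndufc1* for AP against VP (7) and changed no other call. After castration, TMM of the pair gave 9 for luminal AP RFP- (17), 5 for DLP RFP- (3) and 5 for VP RFP+ (62), with 4 of the 5 in the opposite direction in each, and 4 for basal AP (16). Totals without the 50 most abundant genes gave 5, 5 and 5 for luminal AP RFP+ (2), AP RFP- and DLP RFP-, 7 for VP RFP+ and 7 for basal AP, with 4 of the 5 of DLP and 6 of the 7 of VP in the opposite direction. Means of per-cell CPM gave 4 for AP RFP+, 11 for AP RFP- and 16 for DLP RFP-. A 2-fold threshold gave 0, 2, 0 and 14 for the luminal and 1 and 3 for the basal comparisons. A minimum of 20 CPM gave 4 for AP RFP+, leaving out the 6% of cells with most UMIs 4, 9 and 14 for AP RFP+, AP RFP- and DLP RFP-, and the limit of 7500 UMIs 16 for AP RFP+. In the explants, day 1 against day 0 (1) gave 2 at 20 CPM and 2 over all assigned cells, day 3 against day 1 (0) gave 1 with per-cell means, at 20 CPM, without the 6% and with members kept in clustering, and day 6 against day 3 (1) gave 2 with members kept. The cause of these changes was not tested. Of the values of single genes, 257 were kept, 24 lost the call, 30 moved and 3 reversed. A tested gene was kept where direction and call stayed, and a ratio where it stayed within the counting interval of its reported value. Whether a ratio was still called was not counted, and the thresholds of 2-fold and 20 CPM leave a ratio itself unchanged. Luminal tests with VP could not be fitted at 7500 UMIs. Sums of 10 to 20 cells and single pools limit what can be told at low counts. Adult cluster membership of some cells, with small shifts in the adult values, and the name of the castrated VP luminal cluster (Lum-F-like or Lum-E-like) also changed with the linear algebra kernel behind the clustering, which was fixed to a single one here.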
